A study of Homo sapiens with 8 samples.

Results

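The 9 genes described here encode or control the class I antigen presentation machinery: the heavy chain genes HLA-B, HLA-C, HLA-E, HLA-F and HLA-G, the light chain gene B2M, the peptide transporter genes TAP1 and TAP2, and NLRC5, a transcriptional regulator of the class I genes. They were taken from the deposited expression table by symbol, and stood on 54 of its 63816 entries. RNA-seq was done on cells labelled Caco-2, an established line from a human colorectal adenocarcinoma. The controls were 4 samples stably transfected with the empty vector pcDNA3.1, and the other 4 samples carried the same vector with full-length SIGLEC12, so both groups share the transfection and the G418 selection. Siglec-XII, the product of SIGLEC12, is a sialic acid binding type receptor of which the human form does not bind its ligand, and the comparison asks which transcripts differ in a line that does not make it on its own once it is forced to. The vector drives its insert from a strong viral promoter in every cell that holds it, and the series text speaks of selected stable clones. The same text counts fewer cultures in a condition than there are samples here, and replicate libraries of a technical kind are described in the methods. Whether the 4 samples of a group are separate cultures is therefore not known, and every p below measures only the spread between these samples, which may be technical.

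Class I molecules carry peptides made in the cytosol to the cell surface, where cytotoxic T cells and natural killer cells read them. Peptides are cut by the proteasome, moved into the endoplasmic reticulum by the TAP1-TAP2 transporter, and loaded on a heavy chain paired with B2M while calreticulin, tapasin and ERp57 hold the complex. Interferons raise most of these genes through STAT and IRF factors, and NLRC5 acts with the RFX complex, CREB and NF-Y on a shared promoter module. HLA-B and HLA-C present peptides to T cells and bind killer cell receptors, HLA-E presents signal peptides of other class I chains to the receptor NKG2A, and HLA-F and HLA-G have restricted roles, HLA-G being known from the placental trophoblast.

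Values are given as TPM, a length-corrected share of all transcripts, taken back from the deposited log2(TPM + 1) scale. Each sample's values sum to 1000000 TPM, so the number of reads behind a value is unknown. SIGLEC12 was at 0.0399 to 0.122 TPM in the empty vector samples and at 1582 to 1734 TPM in the Siglec-XII samples, as the labels require. Between 15513 and 15934 entries reached 1 TPM in a sample. The label of the line was checked against 16 colon epithelium markers, of which 6 passed the filter of 1 TPM in at least 4 samples. KRT20, FABP1 and SI were listed at 0 in all 8 samples, and CDH17, ALPI, HNF4A and MUC13 stayed under 1 TPM in every sample. Of 17 trophoblast markers 13 passed the filter, at widely different levels. Among the high ones were GATA3 at 331 to 479 TPM, HSD3B1 at 316 to 370 TPM and VGLL1 at 165 to 193 TPM. Others passed only narrowly, with CGA at 0.127 to 1.35 TPM and PSG1 at 0.641 to 2.42 TPM. The same held for ERVFRD-1 at 0.546 to 2.48 TPM and ERVW-1 at 1.08 to 1.59 TPM. CGB3, CGB5, CGB8 and ELF5 stayed under 1 TPM. The intestinal transcription factors CDX1 and CDX2 were present, at 128 to 165 and 34.0 to 48.8 TPM, as was the epithelial gene EPCAM at 527 to 585 TPM. The markers thus went partly with and partly against the label, and the cells are called here by their label only. Of 6 immune cell markers 4 stayed under 1 TPM, PTPRC, CD3E and ITGAX among them, while CD14 reached 1.84 TPM and CD68 2.05 TPM at most. Under 1 TPM were also HLA-DRA and 6 other class II genes of the 11 genes on that list. In bulk samples of this kind a smaller share of cells with a transcript and less of it per cell cannot be told apart.

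The promoters of class I and loading genes are shown first because the interferon and NLRC5 responsive modules lie in them. RefSeq starts on GRCh38.p14 were found for 7 of the 9 members (all but HLA-E and NLRC5). The stretches below run 5′ to 3′ on the strand of the gene, from position -180 to -41 with the first transcribed base at 0, and IFIT1 is added as an interferon target that rose in these data. Capitals mark, on either strand, the 2-part interferon type motif TTTC followed by any 2 bases and TTTC, the class I form TTTCACTTC, the CREB type core TGACG and the NF-Y box CCAAT. Overlapping matches of the same motif run together in 1 stretch of capitals.
HLA-B (chr6:31357220-31357359, minus strand): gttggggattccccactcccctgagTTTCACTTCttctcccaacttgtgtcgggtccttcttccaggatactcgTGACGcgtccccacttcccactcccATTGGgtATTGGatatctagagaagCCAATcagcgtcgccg
HLA-C (chr6:31272133-31272272, minus strand): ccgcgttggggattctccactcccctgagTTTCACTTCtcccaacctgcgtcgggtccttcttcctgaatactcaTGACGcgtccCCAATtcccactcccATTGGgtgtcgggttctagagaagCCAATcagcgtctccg
HLA-F (chr6:29723254-29723393, plus strand): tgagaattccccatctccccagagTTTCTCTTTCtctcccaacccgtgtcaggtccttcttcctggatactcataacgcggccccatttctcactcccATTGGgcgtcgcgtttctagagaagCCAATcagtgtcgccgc
HLA-G (chr6:29827645-29827784, plus strand): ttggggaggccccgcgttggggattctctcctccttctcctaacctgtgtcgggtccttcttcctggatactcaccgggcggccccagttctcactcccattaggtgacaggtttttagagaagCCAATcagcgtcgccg
B2M (chr15:44711337-44711476, plus strand): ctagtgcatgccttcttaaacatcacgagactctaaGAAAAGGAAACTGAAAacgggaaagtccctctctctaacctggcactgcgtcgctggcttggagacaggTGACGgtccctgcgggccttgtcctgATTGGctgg
TAP1 (chr6:32853745-32853884, minus strand): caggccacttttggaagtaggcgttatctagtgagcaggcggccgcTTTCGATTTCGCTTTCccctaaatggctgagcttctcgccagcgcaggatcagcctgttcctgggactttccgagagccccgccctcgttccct
TAP2 (chr6:32838780-32838919, minus strand): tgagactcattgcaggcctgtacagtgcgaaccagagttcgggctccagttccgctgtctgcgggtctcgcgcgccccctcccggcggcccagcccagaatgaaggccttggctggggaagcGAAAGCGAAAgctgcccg
IFIT1 (chr10:89392443-89392582, plus strand): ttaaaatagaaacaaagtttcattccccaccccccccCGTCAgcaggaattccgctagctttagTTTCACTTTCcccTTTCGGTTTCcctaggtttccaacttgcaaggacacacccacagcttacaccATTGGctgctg

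The HLA-B and HLA-C windows held TTTCACTTC at -155 and -151, a motif in 0.510% of 35116 promoters. Such shares were counted from 250 bases before the start to 50 from it on, a longer stretch than the windows shown. Downstream of it both held TGACG, at -106 and -105, and CCAAT at -56, motifs that 24.6% and 34.6% of promoters hold. HLA-F had the 2-part motif at -156 and CCAAT at -82 and -57. HLA-G is listed with 3 starts, and the window of the third, shown here, held only CCAAT at -56. The 2-part motif, present in 3.57% of promoters, stood in 2 overlapping copies in B2M at -144 and -138 and in the first of 2 TAP1 windows at -134 and -128, and in 1 copy in TAP2 at -58. IFIT1 held it at -116 and -103. Such matches describe letters and not bound sites.

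All 9 members were detected, and their levels covered a wide range. By TPM summed over the entries of a symbol, and averaged over the 8 samples, B2M came first at 307 TPM, then HLA-C at 114, HLA-E at 36.5, TAP2 at 32.9, TAP1 at 26.1, HLA-B at 13.6, HLA-G at 5.47, HLA-F at 2.51 and NLRC5 at 0.670. TPM is a value per transcript length, and the levels are set beside each other on that ground only. How fully the reads of each HLA gene matched the copies listed, or were counted to a similar gene, was not tested. The order and shares of the HLA genes hold with that limit. Ranges over the 8 samples overlapped between the neighbours HLA-E and TAP2, TAP2 and TAP1, and HLA-F and NLRC5, and not between the other neighbours in that order. Among the heavy chains of the list, HLA-C made up 67.0% ± 2.59 (SD, n = 4) of the summed TPM in the controls and 65.7% ± 1.70 (SD, n = 4) in the Siglec-XII samples. HLA-E made up 20.8% ± 1.45 and 21.6% ± 1.57, HLA-B 7.40% ± 1.78 and 8.23% ± 1.05, HLA-G 3.24% ± 0.416 and 3.12% ± 0.318, and HLA-F 1.49% ± 0.734 and 1.41% ± 0.580 in the same groups. The make-up of the heavy chain RNA thus moved by less than 1 SD of the empty vector samples for each of the 5 genes.

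**Figure D1:**
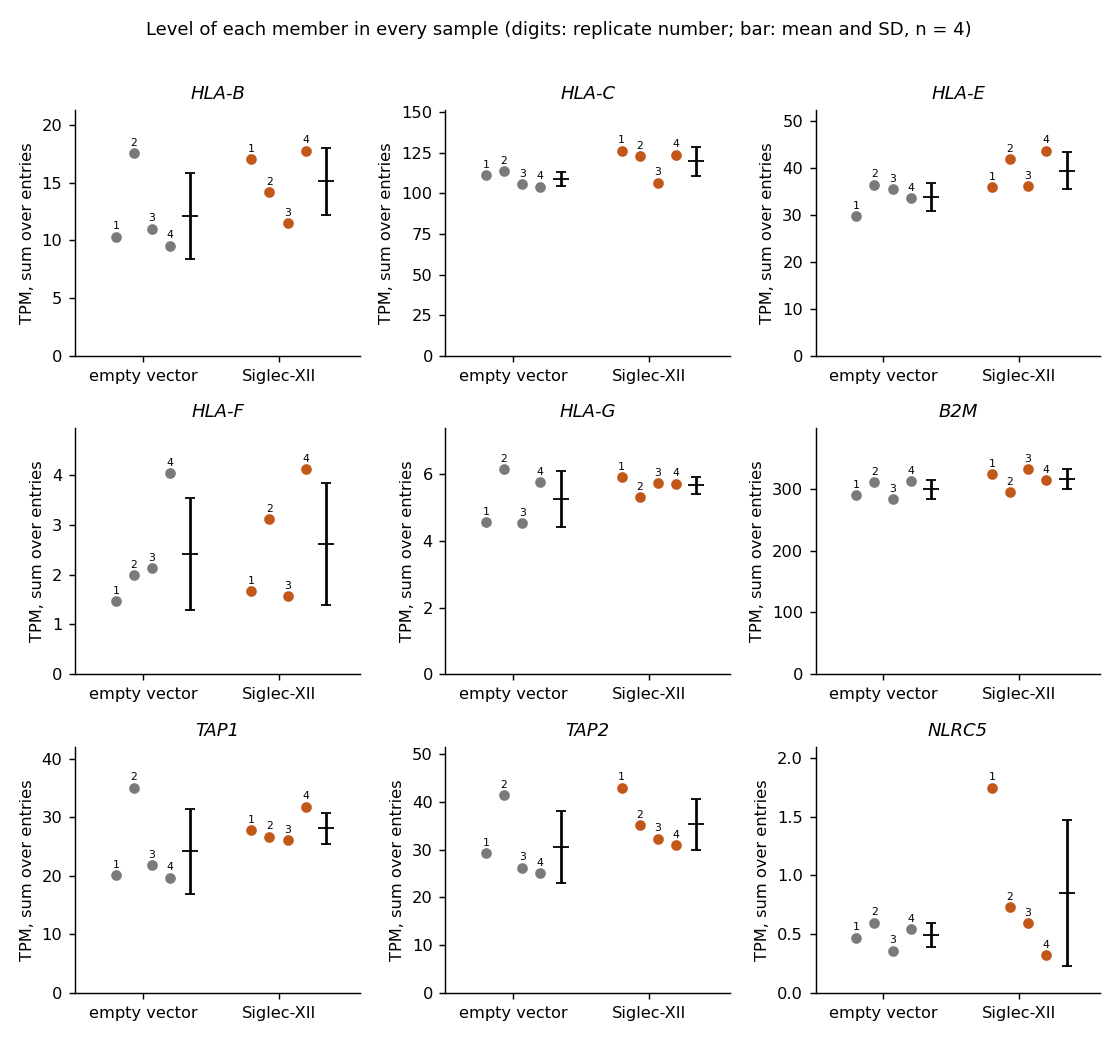
Each panel plots 1 member's TPM, summed over its table entries, on a linear axis from 0 (grey points: 4 empty vector samples, orange points: 4 Siglec-XII samples, digits: replicate numbers, bars: mean and SD). The groups overlap in all 9 panels, and empty vector replicate 2 stands above the other controls for HLA-B, TAP1 and TAP2.

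Most of these symbols stand on several entries with gene IDs outside the GRCh37 annotation, as copies of the major histocompatibility region on other haplotypes have. HLA-G, TAP1 and TAP2 had 8 entries each, HLA-C, HLA-E and HLA-F 7 each, HLA-B 6, B2M 2 and NLRC5 1. The entry with the highest mean was taken as the member, and the sum over entries is given beside it, since reads from near-identical copies can be divided among them. For HLA-B the highest entry, ENSG00000232126, held 89.7% of the summed TPM, while the ID of the GRCh37 annotation, ENSG00000234745, held 3.21%, or 0.437 TPM. In HLA-C the highest entry, ENSG00000225691, held 75.03%, and the annotated ID ENSG00000204525 0.138%, or 0.157 TPM. HLA-G's annotated ID ENSG00000204632 was listed at 0 in all 8 samples, and 2 other entries with identical values shared nearly all of its TPM (49.9% for ENSG00000235346). A reader who took only the annotated IDs would therefore find HLA-B, HLA-C, HLA-F and HLA-G close to 0. HLA-E differed from these in having 3 entries with identical values in every sample, the annotated ENSG00000204592 among them at 33.2% of the sum. TAP1 was divided between ENSG00000224212 (56.7%) and the annotated ENSG00000168394 (42.4%). TAP2's annotated ENSG00000204267 held 49.9%, and B2M's annotated ENSG00000166710 held 91.1%.

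**Figure D2:**
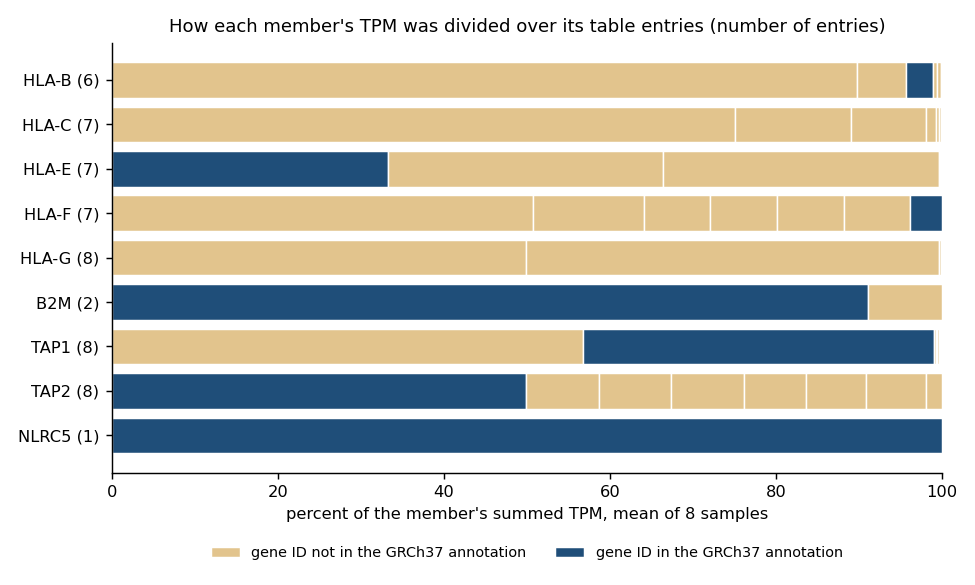
Bars divide each member's summed TPM (mean of 8 samples, percent) over its table entries, whose number follows the symbol. Blue segments are gene IDs that the GRCh37 annotation holds and tan segments are other IDs, and tan fills nearly the whole bar of HLA-B, HLA-C, HLA-F and HLA-G, where the annotated ID holds 3.78% or less.

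No member differed between Siglec-XII and empty vector samples at an adjusted p under 0.05. Tested on the highest entry with limma over the 15590 entries that passed the filter, 0 of 8 members were called, beside 0.648% of all entries, and 0 reached an unadjusted p of 0.05 or less, beside 13.9% of all entries that did so in the upward direction. NLRC5 missed the filter and was not tested. All 8 point estimates were above 0, from 0.048 to 0.31 on the log2 scale, although B2M turned to -0.013 with equal upper quartiles and TAP2 to -0.00087 under quantile normalization. The median over the members was 0.12, beside 0.067 over all entries tested, of which 68.1% were above 0. No member separated the groups completely, whereas 10.8% of all entries did. The smallest adjusted p among the highest entries was 0.333 in limma, for HLA-C.

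Summing TPM over the entries of each symbol before the same fit gave 0 of 8 members at an adjusted p under 0.05, beside 0.643% of 14765 symbols. HLA-C and HLA-E then had an unadjusted p of 0.05 or less, 2 of 8 members beside 14.1% of symbols that did so upward. The median of the members was 0.18 on this scale, beside 0.067 over all symbols. Over the 22 member entries that passed the filter one by one, several of them identical copies, all 22 estimates were above 0, 0 were called and 1, the second B2M entry, had an unadjusted p of 0.05 or less.

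**Figure D3:**
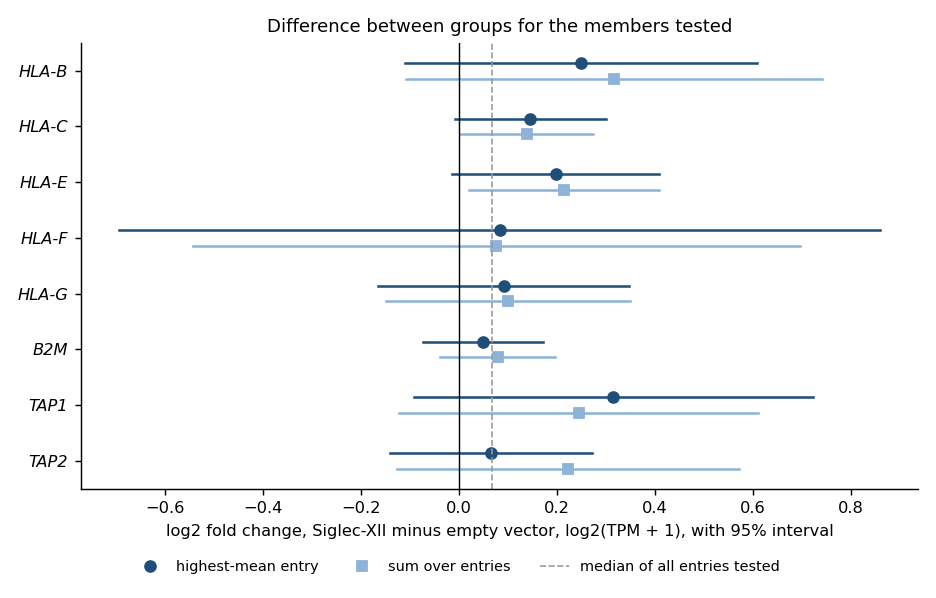
Points give the log2 fold change (Siglec-XII minus empty vector, on log2(TPM + 1)) of the 8 members tested, for the highest entry (circles) and the sum over entries (squares), and lines the 95% limma interval. All intervals of the highest entries cross 0, and the dashed line marks the median of all entries tested, 0.067.

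HLA-B lies on chromosome 6 of GRCh37 from 31321649 to 31334844 on the minus strand. Its summed level was 10.3, 17.6, 11.0 and 9.54 TPM in empty vector replicates 1 to 4 and 17.1, 14.2, 11.5 and 17.8 TPM in Siglec-XII replicates 1 to 4. The groups overlapped, with 3 controls below every Siglec-XII sample and replicate 2 of the controls close to the highest. On the highest entry the log2 fold change was 0.25 (95% interval -0.11 to 0.61, limma adjusted p = 0.468), a 1.19-fold difference in TPM + 1. With 1 sample left out it ran from 0.17 without empty vector replicate 4 (limma adjusted p = 0.664) to 0.41 without empty vector replicate 2 (limma adjusted p = 0.0980).

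HLA-C, at chromosome 6 from 31236526 to 31239907 on the minus strand, was the most abundant heavy chain of the list. It stood at 111, 113, 106 and 104 TPM in the controls and at 126, 123, 106 and 124 TPM with Siglec-XII. In 3 Siglec-XII samples it was above every control, and replicate 3 lay among the controls. The summed log2 fold change was 0.14 (95% interval 0.0016 to 0.27, limma unadjusted p = 0.0479, adjusted p = 0.295), a 1.10-fold difference. The highest entry's log2 fold change of 0.15 ran, with 1 sample left out, from 0.11 without Siglec-XII replicate 4 to 0.21 without Siglec-XII replicate 3 (limma adjusted p = 0.549 and 0.168).

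HLA-E, the ligand of NKG2A, lies on chromosome 6 from 30457286 to 30461971 on the plus strand. It was at 29.7, 36.4, 35.5 and 33.5 TPM in the controls and at 35.9, 41.8, 36.1 and 43.6 TPM with Siglec-XII. Replicates 2 and 4 of the Siglec-XII samples were above every control, and the other 2 were inside their range. Its summed log2 fold change of 0.21 (95% interval 0.019 to 0.41) had a limma unadjusted p of 0.0344 and an adjusted p of 0.264.

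HLA-F (chromosome 6, 29690552 to 29706305, plus strand) was low and the most variable of the heavy chains. Its summed level was 1.47, 1.99, 2.13 and 4.03 TPM in the controls and 1.67, 3.10, 1.56 and 4.11 TPM with Siglec-XII. Either group had 1 sample near 4 TPM, and the log2 fold change of the highest entry, 0.083, had a 95% interval from -0.69 to 0.86 (limma adjusted p = 0.928). At this level and spread, differences in TPM + 1 of up to 1.81-fold upward and 0.618-fold downward were inside the interval. In TPM alone the interval is wider, since the added 1 weighs heavily at this level. With a pseudocount of 0.1 the log2 fold change of the highest entry was 0.29 (limma adjusted p = 0.852).

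HLA-G (chromosome 6, 29794744 to 29798902, plus strand) is the heavy chain typical of invasive trophoblast, for which no separate marker list was examined. On the general trophoblast list some markers were high and others near or under 1 TPM. HLA-G was found at 4.57, 6.16, 4.55 and 5.78 TPM in the controls and at 5.91, 5.31, 5.74 and 5.73 TPM with Siglec-XII. The 4 Siglec-XII values all fell inside the range of the controls. Its log2 fold change was 0.091 (95% interval -0.17 to 0.35, limma adjusted p = 0.731).

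The 5 heavy chains were also added up in each sample, which sidesteps the division of reads among copies and, in part, among genes. The total was 157, 176, 159 and 157 TPM in the controls (162 ± 8.99, SD, n = 4) and 187, 187, 161 and 195 TPM with Siglec-XII (182 ± 14.6, SD, n = 4). In 3 of 4 Siglec-XII samples the total was above the highest control. On the log2 scale the means differed by 0.17 (two-sided exact permutation p = 0.0571, where 0.0286 is the smallest p that 70 labellings allow). The median log2 fold change over all symbols tested was 0.067.

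B2M, the light chain with which class I heavy chains pair, lies on chromosome 15 from 45003556 to 45011049 on the plus strand. Its summed level was 290, 311, 283 and 312 TPM in the controls and 323, 294, 331 and 314 TPM with Siglec-XII. In 3 Siglec-XII samples it was above all controls, though replicate 4 only just, and the remaining 1 lay among them. The highest entry had a log2 fold change of 0.048 (95% interval -0.074 to 0.17, limma adjusted p = 0.698), so differences above 1.13-fold lay outside the interval. The second entry, ENSG00000273686, which is not in the GRCh37 annotation, was at 23.7, 22.2, 22.3 and 26.7 TPM in the controls and at 31.6, 32.4, 33.8 and 26.7 TPM with Siglec-XII, and had a log2 fold change of 0.38 (95% interval 0.18 to 0.57, limma unadjusted p = 0.0018, adjusted p = 0.104). The 2 entries belong to 1 gene symbol, the part of the division of reads between them was not tested, and their sum differed by 0.079 (95% interval -0.039 to 0.20).

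The ratio of heavy chain to B2M TPM does not depend on how a sample was scaled. It was 0.543, 0.564, 0.562 and 0.503 in the controls (0.543 ± 0.0283, SD, n = 4) and 0.578, 0.636, 0.487 and 0.621 with Siglec-XII (0.580 ± 0.0670, SD, n = 4). Siglec-XII replicate 3 had the lowest ratio of all 8 samples and the other 3 had the highest. The log2 difference was 0.090 (two-sided exact permutation p = 0.4), and without Siglec-XII replicate 2 it was 0.043 (exact permutation p = 0.686). Without Siglec-XII replicate 3 it was 0.17 (exact permutation p = 0.0286). That p is the smallest the remaining samples allow, and it follows from leaving out the 1 low sample, so nothing is drawn from it.

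**Figure D4:**
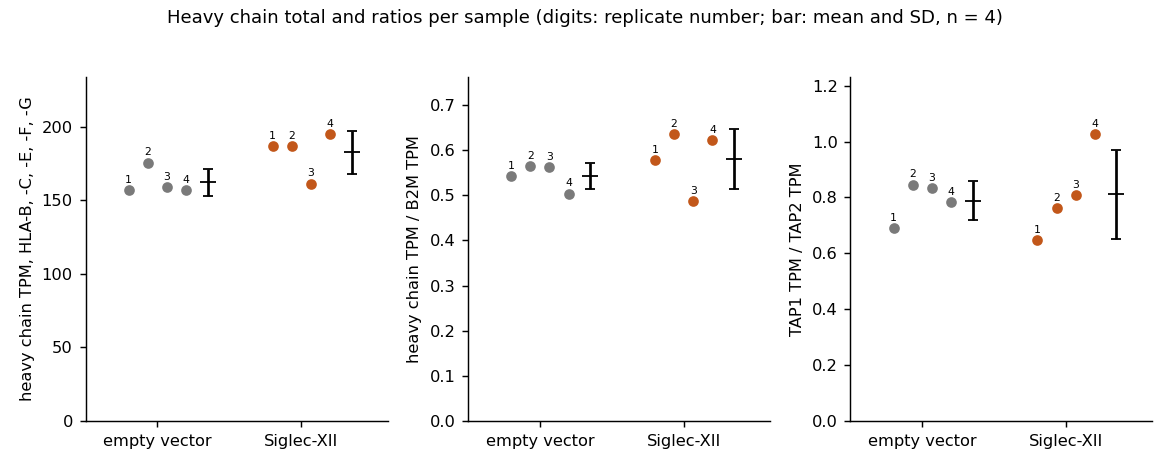
Panels plot, per sample, the summed TPM of the 5 heavy chains, its ratio to B2M TPM and the ratio of TAP1 to TAP2 TPM (grey: empty vector, orange: Siglec-XII, digits: replicate numbers, bars: mean and SD, n = 4, axes from 0). Siglec-XII replicate 3 sits with the controls in the first panel and lowest in the second, and the groups overlap in all 3.

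TAP1 and TAP2 form the transporter that feeds peptides to the heavy chains. They lie close to each other on chromosome 6, TAP1 from 32812986 to 32821593 and TAP2 from 32789610 to 32806516, both on the minus strand. TAP1 was at 20.2, 35.1, 21.8 and 19.7 TPM in the controls and at 27.8, 26.7, 26.1 and 31.8 TPM with Siglec-XII. All 4 Siglec-XII values were above 3 of the controls and below the control replicate 2. The highest entry's log2 fold change was 0.31 (95% interval -0.092 to 0.72, limma adjusted p = 0.417), and the sum over entries gave 0.24. With 1 sample left out the former ran from 0.17 without empty vector replicate 1 (limma adjusted p = 0.683) to 0.49 without empty vector replicate 2 (limma adjusted p = 0.104).

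TAP2 was at 29.2, 41.5, 26.2 and 25.1 TPM in the controls and at 43.0, 35.0, 32.3 and 31.0 TPM with Siglec-XII. Again all 4 Siglec-XII samples were above 3 of the controls, and control replicate 2 was above 3 of the Siglec-XII samples. The annotated entry differed by 0.065 on the log2 scale (95% interval -0.14 to 0.27, limma adjusted p = 0.769) and the sum over entries by 0.22 (95% interval -0.13 to 0.57, limma adjusted p = 0.506). The ratio of TAP1 to TAP2 TPM was 0.788 ± 0.0705 in the controls and 0.811 ± 0.159 with Siglec-XII (SD, n = 4), a log2 difference of 0.025 (two-sided exact permutation p = 0.914).

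NLRC5, the class I transactivator, lies on chromosome 16 from 57023397 to 57117443 on the plus strand and was the lowest of the 9 members. Its level was 0.470, 0.599, 0.360 and 0.539 TPM in the controls and 1.75, 0.728, 0.596 and 0.323 TPM with Siglec-XII. Replicate 1 alone exceeded 1 TPM, and replicate 4 of the same group was the lowest of all. Such low TPM values carry a large counting error that cannot be stated without the reads.

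Members moved only in part together within the groups. Of the 36 pairs of members, 28 had a positive Pearson correlation of their deviations from the group means over the 8 samples, with a median of 0.27, as a description of 8 libraries that share their depth and scaling. The highest was 0.91, between HLA-B and TAP1, both of which were high in empty vector replicate 2, and the lowest -0.47, between HLA-E and NLRC5. Empty vector replicate 2 was the highest of its group for 7 of the 9 members, and empty vector replicate 4 held the lowest level of all samples for 4. The entries whose deviations were most like those of the heavy chain total, among 10965 entries with a mean of at least 5 TPM, were MAP3K11 (Pearson r = 0.984), BRD2 (0.964), SLC12A4 (0.963), BAHD1 (0.960) and ZNHIT2 (0.956). For B2M they were ZNF691 (Pearson r = 0.982), GTF2H1 (0.980), KLHL7 (0.980), BZW1P2 (0.979) and NAP1L4 (0.974). The 95th percentile over those entries was 0.740 for the heavy chain total and 0.753 for B2M, so high values are common with 8 samples.

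The other genes of the pathway were taken from lists written with earlier results of these data known. For comparison with the lists below, 68.1% of all entries tested were above 0, with a median log2 fold change of 0.067. Of all entries tested, 0.648% were called, 13.9% rose at a limma unadjusted p of 0.05 or less, and 10.8% had groups without overlap. Of 7 loading genes, all tested, 6 were above 0 and 1 below, 0 were called, and their median log2 fold change was 0.10. CALR, the calreticulin gene and the most abundant of them, was at 828 ± 30.8 and 887 ± 16.9 TPM (SD, n = 4; log2 fold change 0.10, limma unadjusted p = 0.0365, adjusted p = 0.270). CANX, for the chaperone calnexin, was at 636 ± 15.6 and 711 ± 25.1 TPM on its highest entry (SD, n = 4; 0.16, limma unadjusted p = 0.0032, adjusted p = 0.116). Neither gene's groups overlapped, which held for 10.8% of all entries tested. The immunoproteasome subunits and the proteasome activator gave 3 above 0 and 2 below among 5 tested, a median of 0.036 and 0 called, with PSME1 the most abundant at 50.4 ± 2.70 and 46.4 ± 2.73 TPM.

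Among 15 transcription factors that act on class I genes, 14 were tested, 11 were above 0 and 3 below, 0 were called, and the median was 0.16. IRF9, a subunit of the factor that interferons activate, was at 2.96 ± 0.801 and 4.70 ± 0.555 TPM (SD, n = 4). Its log2 fold change was 0.54 (95% interval 0.20 to 0.89, limma adjusted p = 0.144). The groups did not overlap, as in 10.8% of all entries tested. NFKB1 had 0.20 (limma adjusted p = 0.222), and NFYC, the most abundant, had 0.082. CIITA, the class II counterpart of NLRC5, stayed under 1 TPM in every sample.

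Class I-like genes, which mostly signal to killer cells or carry other cargo, went both ways, with 4 above 0 and 4 below among 8 tested, 0 called and a median of -0.053. ULBP2, a ligand of the activating receptor NKG2D, was at 5.72 ± 0.495 and 4.29 ± 1.11 TPM (SD, n = 4). Its log2 fold change was -0.37 (limma unadjusted p = 0.0457, adjusted p = 0.293), with no overlap, as in 10.8% of all entries tested. MICB was at 9.30 ± 2.46 and 7.72 ± 0.809 TPM (limma adjusted p = 0.565), and FCGRT, the neonatal Fc receptor chain, at 12.6 ± 1.37 and 14.0 ± 1.58 TPM (limma adjusted p = 0.521).

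Type I interferon targets were the only one of these lists with calls. Of 14 genes 10 were tested, 9 were above 0 and 1 below, the median was 0.43, and 3 rose at an adjusted p under 0.05. IFIT1, which binds foreign RNA ends, rose from 0.320 ± 0.0496 to 3.45 ± 0.127 TPM (SD, n = 4), a log2 fold change of 1.75 (95% interval 1.50 to 2.01, limma adjusted p = 0.000124). Its neighbour IFIT2 rose from 0.340 ± 0.0827 to 3.72 ± 0.235 TPM (1.82, limma adjusted p = 0.000124), and IFIT3 from 0.166 ± 0.0767 to 1.99 ± 0.349 TPM (1.35, limma adjusted p = 0.00237). These 3 genes passed the filter only through the Siglec-XII samples, a selection that favours genes higher in that group, and their count is not read as support. The RNA sensor IFIH1 (0.58, limma adjusted p = 0.0978), ISG15 (0.44, limma adjusted p = 0.180) and OAS3 (0.42, limma adjusted p = 0.161) had an unadjusted p of 0.05 or less and were not called. IFI6, the most abundant of the list at 199 ± 13.6 and 196 ± 6.55 TPM, had -0.018 (limma adjusted p = 0.898).

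Targets typical of interferon gamma, an interferon known to raise class I genes, were mostly under 1 TPM. Of 10, 8 stayed under 1 TPM in every sample, among them GBP1, CXCL9 and CXCL10, with IDO1 listed at 0. The 2 tested were WARS, at 202 ± 16.8 and 236 ± 14.2 TPM (SD, n = 4; log2 fold change 0.22, limma adjusted p = 0.168), and SOCS1 (0.24, limma adjusted p = 0.285).

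**Figure D5:**
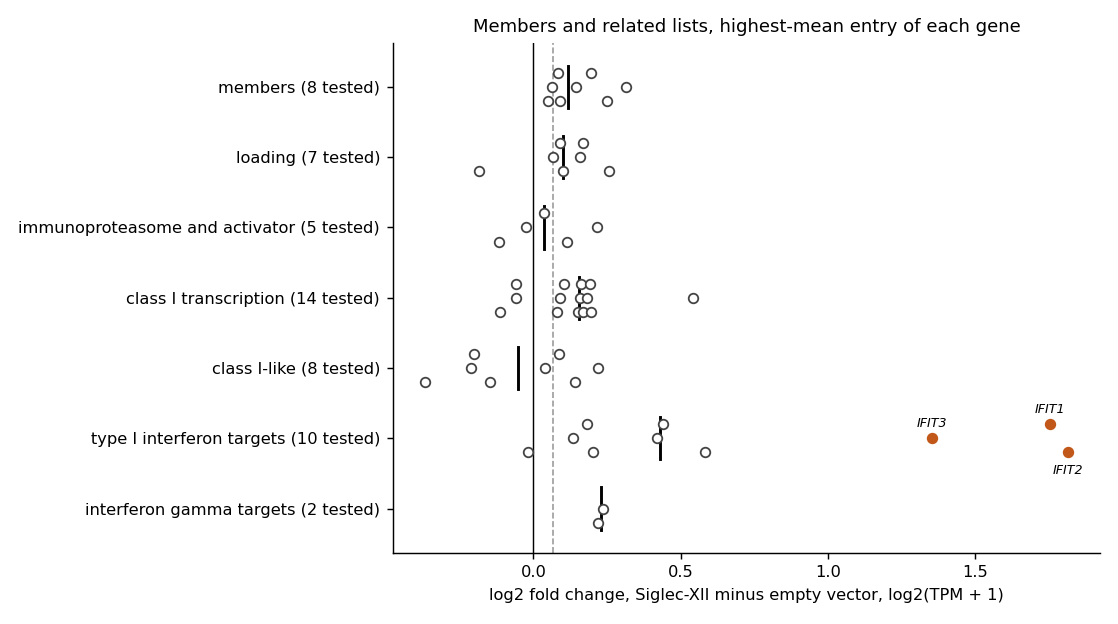
Circles give the log2 fold change (Siglec-XII minus empty vector, log2(TPM + 1)) of every tested gene of the members and of 6 related lists, filled where the limma adjusted p is under 0.05, with a bar at each list's median and a dashed line at the median of all entries, 0.067. The filled circles are IFIT1, IFIT2 and IFIT3 at 1.75, 1.82 and 1.35, and the 8 members lie between 0.048 and 0.31.

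Markers of cell types moved with the groups to a small extent. The summed TPM of the 16 colon epithelium markers was 8147 to 9104 in the controls and 9718 to 10090 with Siglec-XII, mostly KRT8, KRT18 and KRT19, with 6 of 6 tested above 0, 5 at an unadjusted p of 0.05 or less and 0 called, beside 68.1% of all entries above 0 and 13.9% at that unadjusted p upward. The 17 trophoblast markers summed to 1507 to 1687 and 1572 to 1665 TPM, the 6 immune cell markers to 1.94 to 3.21 and 1.56 to 3.31 TPM, and the 11 class II genes, nearly all of it CD74, to 63.7 to 64.9 and 63.6 to 70.9 TPM. The 5 fibroblast markers, with THY1 at 0 throughout, summed to 62.4 to 75.03 and 76.4 to 82.8 TPM. The part of these shifts in the differences of the class I genes was not tested.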

How the data were processed

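RNA of 8 samples was sequenced. Per the labels the libraries were made with a stranded kit for total RNA, while the methods of the study name a kit for mRNA. The deposited values are log2(TPM + 1) per gene entry, which the authors made with kallisto (version 0.45.0 in the submitters' processing notes) against hg19, with no further scaling. Depth is therefore unknown, no counting interval could be given, and 0 columns of other samples were present. Gene IDs were matched to the GENCODE annotation of GRCh37 for 55485 entries (86.9%).

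Groups were compared with limma 3.58.1 (R 4.3.3; lmFit, eBayes with trend, Benjamini-Hochberg) on all entries at 1 TPM or more in 4 or more samples, with a pseudocount of 1, and the fit was tested on simulated data. Fold changes on this scale understate those of low genes. Sums and ratios were compared by two-sided exact permutation tests. The study used a test for counts, which the table does not hold. The 9 members were named in full. Some other genes are not reported here. Of the lists, the genes called, up to 5 with an unadjusted p of 0.05 or less and the most abundant were named. The members, the lists and the alternatives were chosen with earlier results of these data known. Alternatives were another pseudocount, other filters and scalings, a replicate block, other limma settings, the sum over entries and each sample left out. Plots were made in Python 3.11.15 (matplotlib 3.10.9).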

Additional observations from a re-analysis of the deposited data

Results flagged for a closer look

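Among 40 groups of 4 samples examined, 4 held a sample that stood far from the other 3 (Dixon test at the 95% level), where chance gives about 1 in 20. Empty vector replicate 2 was such a sample in 3 of them. Its log2 level was 4.07 for the highest HLA-B entry, with the other controls at 3.34 to 3.46. For the highest HLA-C entry it was 6.41, with the others at 6.34 to 6.35, a small distance in size. For the heavy chain total it was 7.46, with the others at 7.30 to 7.32. In the fourth, Siglec-XII replicate 3 had a log2 summed HLA-C level of 6.75, with the other Siglec-XII samples at 6.95 to 6.99. TAP1 and TAP2 were also high in empty vector replicate 2, without passing the same limit. The groups examined overlap in content, since an entry counts again in its sum, and HLA-B and HLA-C count again in the heavy chain total. The flags are therefore not independent of each other.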

How the results depend on the processing

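The count of members called stayed at 0 under all 19 alternatives, with a lowest limma adjusted p of 0.0980, for HLA-B without empty vector replicate 2. The heavy chain total differed by 0.11 to 0.23 on the log2 scale over 15 alternatives, with an exact permutation p of 0.0571 to 0.171. The difference was smallest with equal upper quartiles, at 0.11 (exact permutation p = 0.171). The heavy chain to B2M ratio kept its direction over 11 alternatives, from 0.043 without Siglec-XII replicate 2 to 0.17 without Siglec-XII replicate 3. Only the latter had an exact permutation p of 0.0286, the smallest possible there, because it leaves out the sample with the lowest ratio. The list calls, 3 in the report, were 0 with a mean of at least 5 TPM, because IFIT1, IFIT2 and IFIT3 are not tested there. B2M turned to -0.013 with equal upper quartiles and TAP2 to -0.00087 under quantile normalization. HLA-F ran from -0.13 without empty vector replicate 1 to 0.43 without empty vector replicate 4, and the cause was not tested. HLA-B, HLA-C, HLA-E, HLA-G and TAP1 kept their direction under all alternatives run for them.

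Over all entries the count of calls was 101, and fell to 40 without small structured RNAs, 51 with no filter beyond a value above 0 and 54 without the trend. It was 49 to 159 with 1 sample left out, the highest without empty vector replicate 2. Of the calls 52.5% were upward, and 32.6% under quantile normalization, 29.3% with equal upper quartiles and 34.2% without the mitochondrial and 100 most abundant entries. With a replicate block 69 entries and 0 members were called, and the heavy chain total kept its difference of 0.17 (paired exact permutation p = 0.125, the smallest 4 pairs allow). Same-numbered samples had correlations of their deviations near 0 (-0.074 to 0.059). With 4 pairs such values cannot show whether the numbers pair the samples. An effect of read depth cannot be judged from TPM.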
